A study of Mus musculus with 18 samples.

Results

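The methionine cycle and transsulfuration enzymes were examined as 9 genes chosen by symbol: Mat1a, Gnmt, Ahcy, Bhmt, Bhmt2, Cbs, Cth, Pemt and Mtr. They are 9 of 52230 genes in the data, and all 9 were among the 10938 genes tested, those with at least 10 estimated counts in at least 4 libraries. Liver RNA was sequenced from 18 mice, 1 library per mouse, of the GCKR-P446L-EMI-B6N line, a knock-in of a variant of Gckr, which encodes the glucokinase regulatory protein GKRP. The groups were males with proline at residue 446 of GKRP (male PP, n = 4), males with leucine there (male LL, n = 4), females with proline (female PP, n = 5) and females with leucine (female LL, n = 5). All mice were fed standard chow, and the PP mice, which carry the wild-type residue, served as controls within each sex. Ages in the labels ran from 9 to 14 weeks, whereas the design text gives 14 weeks for all mice. The labels give 9, 12, 14 and 14 weeks for male PP and 13, 13, 13 and 14 for male LL mice. For female PP mice they give 9, 9, 11, 12 and 14 weeks, and for female LL mice 11, 11, 13, 13 and 14. By these labels age was not balanced between the genotypes. The study asked how the LL genotype changes the liver transcriptome in either sex.

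The methionine cycle makes S-adenosylmethionine (SAM), the methyl donor of most methylation reactions, and takes the used methyl donor back to homocysteine. Homocysteine is either methylated again to methionine or drained through transsulfuration to cysteine. The liver carries most of this traffic, and several of the enzymes are made mainly by hepatocytes.

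Mat1a encodes the liver form of methionine adenosyltransferase, which makes SAM. Gnmt (glycine N-methyltransferase) and Pemt (phosphatidylethanolamine N-methyltransferase) spend SAM, the former on glycine and the latter on making phosphatidylcholine. Ahcy hydrolyses the product of these reactions, S-adenosylhomocysteine, to homocysteine and adenosine. Bhmt and Bhmt2 return a methyl group, Bhmt from betaine to homocysteine and Bhmt2 from S-methylmethionine, and Mtr (methionine synthase) takes it from methylfolate with cobalamin. Cbs and Cth carry out the 2 steps of transsulfuration, from homocysteine to cystathionine and from cystathionine to cysteine.

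Sequence is shown first for the members whose reads can be confused with those of another gene, because the counts of such genes depend on how reads were divided. Ahcy lies on the minus strand of chromosome 2 from 154901230 to 154916422 (GRCm39), and a near copy, Ahcyl, lies on chromosome 16 from 45973348 to 45975440. Their coding sequences are both 1296 bases long and differ at 4 bases (99.7% identical). Of the 31-base words in the Ahcy transcripts, 68.6% also occur in Ahcyl, and 93.2% of those of Ahcyl occur in Ahcy. The 90 coding bases below, from base 385 to 474, hold 2 of the 4 differences, which are in capitals.
Ahcy-201: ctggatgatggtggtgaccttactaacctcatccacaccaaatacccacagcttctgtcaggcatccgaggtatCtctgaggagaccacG
Ahcyl-201: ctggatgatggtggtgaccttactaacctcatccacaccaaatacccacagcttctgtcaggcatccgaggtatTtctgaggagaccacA

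Bhmt and Bhmt2 are neighbours on the minus strand of chromosome 13, Bhmt from 93753183 to 93774469 and Bhmt2 from 93792228 to 93811228 (GRCm39). Their coding sequences are far less alike (67.1% identical over the alignment), and 0.695% of the words of Bhmt occur in Bhmt2. The coding bases 4 to 93 of each are shown because they tell the 2 genes apart, with the 30 differences in capitals.
Bhmt-201: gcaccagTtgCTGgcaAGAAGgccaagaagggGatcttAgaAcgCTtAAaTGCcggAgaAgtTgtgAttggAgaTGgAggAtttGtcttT
Bhmt2-201: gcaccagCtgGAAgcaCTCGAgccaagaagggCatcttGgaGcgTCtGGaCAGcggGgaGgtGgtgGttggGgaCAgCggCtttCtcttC

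Bhmt shares more words with Bhmt1b (27.1%) and the pseudogene Bhmt-ps1 (15.6%), but these had at most 3.74 and 1.28 estimated counts in any library. The transcripts of Mat1a, Gnmt and Mtr share no word with another gene, and those of Cth (0.0362%) and Pemt (1.3%) share few. Of the words of Bhmt2 12.2% occur in 135 other genes together, at most 4.53% in any of them, and of those of Cbs 6.33% in 2520 other genes, at most 0.94% in any. Dmgdh, on the opposite strand, starts at 93810207, inside the upstream end of Bhmt2, and whether reads were counted by strand was not stated.

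Of the 9 genes, 7 had a promoter entry in RefSeq (GRCm38.p6). The window of Bhmt, the member with the largest difference between the sexes in PP mice, is printed because Bhmt was called between them, 250 bases on the minus strand of chr13:93637759-93638008 that end at the gene start. Capitals mark AGGTCA, the hexamer bound by many nuclear receptors, searched on both strands. It was chosen as a motif after the windows had been read.
Bhmt promoter: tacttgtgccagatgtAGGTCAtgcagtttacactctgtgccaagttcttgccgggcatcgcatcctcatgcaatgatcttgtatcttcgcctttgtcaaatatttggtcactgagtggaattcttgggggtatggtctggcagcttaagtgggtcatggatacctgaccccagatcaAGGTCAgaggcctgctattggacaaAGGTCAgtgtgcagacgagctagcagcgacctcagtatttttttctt
The hexamer began at positions -234, -72 and -47 from the RefSeq start, to which no Bhmt transcript of the files was matched. It occurred in 14.0% of all 32851 promoter windows of this length, among them also those of Gnmt and Ahcy, and in neither window of Pemt. The motif TTCNNNGAA, bound by STAT5, which carries the growth hormone signal in liver, occurred in 7.02% of all windows. It was absent from the Bhmt window and present in 1 of the 2 Pemt windows, upstream of a start to which no transcript of the files was matched either.

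The libraries held 3794670 to 6613910 estimated counts each. Gckr did not differ between genotypes beyond the spread between mice, at -0.12 ± 0.15 (log2 fold change and SE) in males and -0.05 ± 0.13 in females. The sex-linked genes matched the label in 18 of 18 libraries. Markers of hepatocytes were present in every library, with no marker of 8 at 0 in any group. In bulk liver, fewer cells of a type and less RNA per cell cannot be told apart. Fragment length, estimated from the transcript lengths in the files, was shorter in female LL than in female PP mice (292 ± 52.1 against 448 ± 108 bases, SD, two-sided exact permutation p = 0.0159). In males it averaged 407 ± 156 bases with LL against 518 ± 95.7 with PP (SD, exact permutation p = 0.286). Mitochondrial genes held 12.5% ± 1.34 of the counts in female LL against 10.2% ± 1.11 in female PP livers (SD, exact permutation p = 0.0317).

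Levels per transcript length, in TPM (read share per base of transcript, scaled to the same total in each library), were high for most of the pathway. In male PP mice Bhmt had the highest mean, 625 ± 63.9 TPM (SD, n = 4). Pemt with 454 ± 302, Gnmt with 453 ± 168, Ahcy with 422 ± 104 and Mat1a with 351 ± 160 TPM followed and did not differ from each other beyond their spread. Cbs (151 ± 64.6 TPM) and Cth (102 ± 20.6 TPM) stood lower and overlapped. Bhmt2 reached 24.9 ± 5.78 TPM, and Mtr, the folate-dependent alternative to Bhmt, was at 0.338 ± 0.155 TPM. Bhmt and Mtr, the betaine and the folate routes from homocysteine to methionine, thus stood at the top and the bottom of the order in these mice.

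In the other groups Bhmt2 and Mtr kept the last 2 places and the upper places changed. Bhmt had the highest mean in male LL (950 ± 356 TPM, SD, n = 4) and in female LL mice (1006 ± 303 TPM, SD, n = 5). The next, Gnmt in male LL (645 ± 146 TPM) and Pemt in female LL mice (909 ± 233 TPM), lay within the spread of Bhmt. In female PP mice the mean of Bhmt, 643 ± 206 TPM, came after Gnmt (1053 ± 270), Ahcy (1008 ± 312), Mat1a (960 ± 335) and Pemt (691 ± 157 TPM). TPM is a share of each library's total, and over 10874 genes the median log2 ratio of mean TPM was 0.74 for female PP against male PP mice. TPM was therefore used only to order genes within a group, and all comparisons between groups used normalized counts, for which the median log2 fold change over all genes lay within 0.02 of 0.

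**Figure D1:**
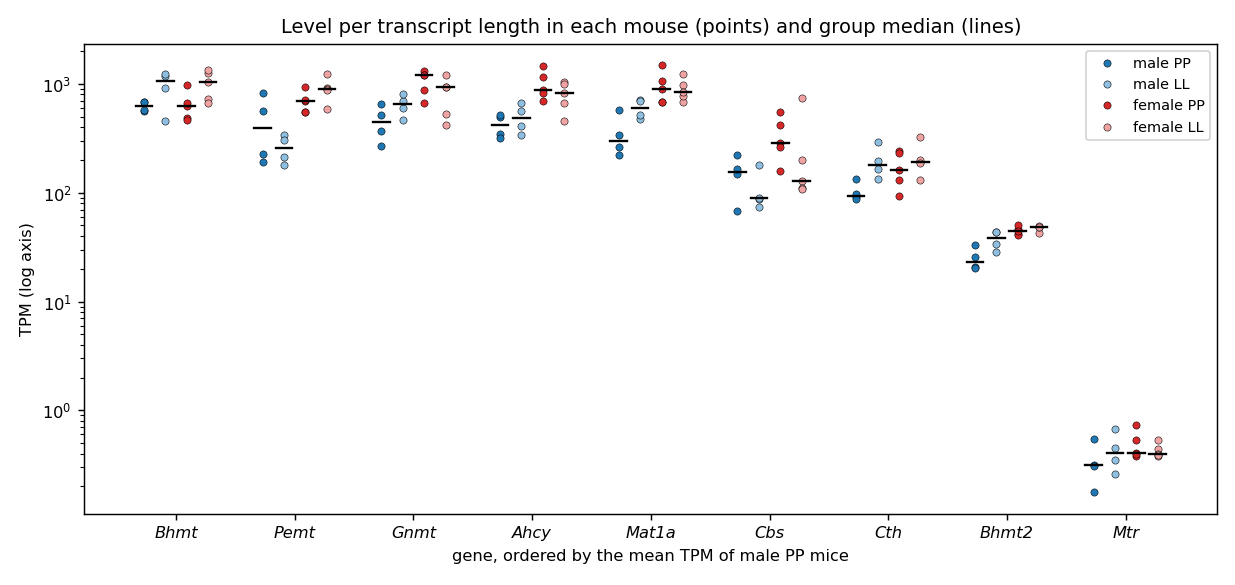
Level of each gene in TPM (log axis) in each mouse, by group, with the group medians as lines. Bhmt2 and Mtr lie below the other 7 genes in every group, and Mtr is below 1 TPM in all 18 mice.

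The spread between mice was small for some members and wide for others. Within a group the coefficient of variation (CV) of the normalized count was 1.94% to 9.15% for Bhmt2, 4.06% to 22.4% for Pemt and 10.8% to 23.4% for Mat1a. It reached 32.5% for Bhmt, 36.2% for Cth and 38.3% for Gnmt. Counting error alone would give 0.81% to 0.98% for Bhmt and 3.68% to 4.16% for Bhmt2, above the lowest CV of Bhmt2 (1.94%, male LL mice). For Mtr it would give 17.7% to 20.9%, against a measured CV of 21.9% to 29.5%.

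LL genotype changed no member past the test in either sex. A gene was called where the DESeq2 adjusted P was below 0.05 and the level rose to 1.3 times or more, or fell to 0.7 times or less. By this rule 0 of 9 members were called in male LL against male PP mice, where 0.283% of all tested genes were called, and 0 of 9 in female LL against female PP mice (0.658% of all genes). Averaged over the sexes the count was 0 of 9 (0.978% of all genes), and the genotype by sex interaction, called without a limit on the fold, also gave 0 of 9 (0.119% of all genes). The edgeR quasi-likelihood test also called 0 members in each of these 4 comparisons. At an unadjusted p below 0.05 there were 1 of 9 members in males (7.81% of all genes), 2 of 9 in females (13% of all genes), 2 of 9 averaged over the sexes (13.8% of all genes) and 0 of 9 in the interaction (5.67% of all genes). LL and PP values of 0 of 9 members were apart without overlap in males (4.07% of all genes) and in females (2.66% of all genes). The median log2 fold change of the 9 genes was 0.09 in males, with 7 of 9 positive, and 0.14 in females, with 6 of 9 positive, beside a median over all genes of 7.51e-05 and 0.01.

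Sex moved more of them. In female PP against male PP mice, 3 of 9 members were called, Mat1a and Pemt higher in females and Bhmt lower, where 6.45% of all genes were called (3.68% higher and 2.77% lower). In female LL against male LL mice Pemt alone was called, 1 of 9, beside 6.12% of all genes (3.33% higher and 2.79% lower). The values of female and male mice did not overlap for 3 of 9 members in PP mice (9.74% of all genes) and 1 of 9 in LL mice (8.16% of all genes), and these were the members called. Since the interaction called no member, no sex difference was shown to depend on genotype.

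**Figure D2:**
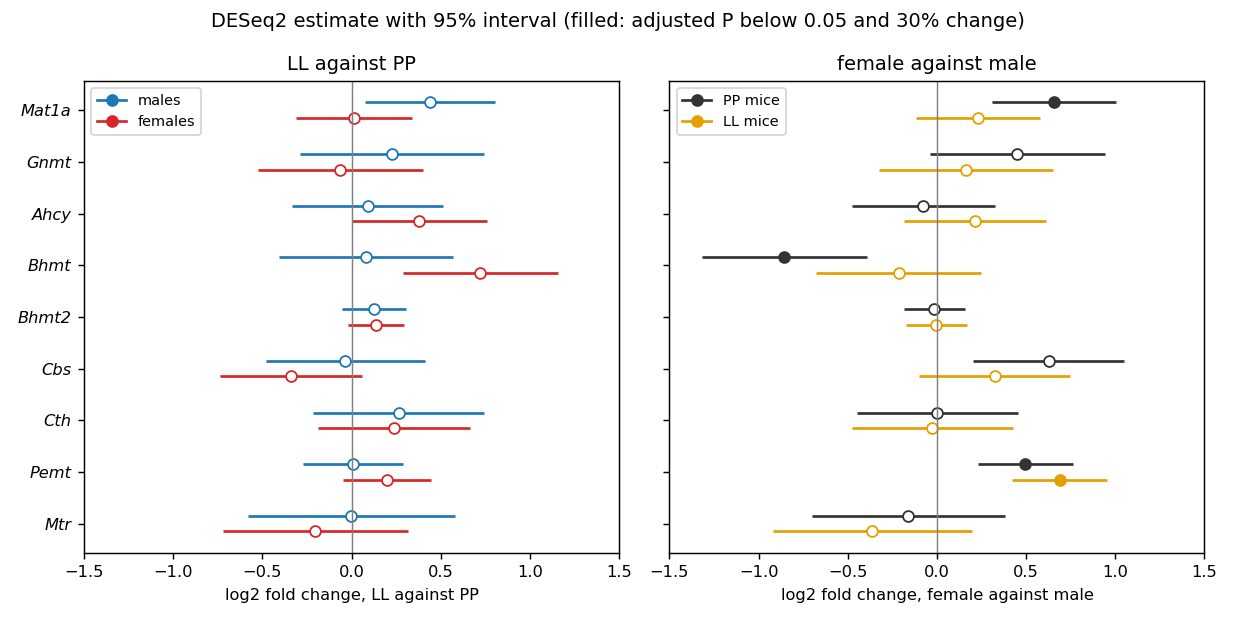
DESeq2 log2 fold change of each gene with its 95% interval, for LL against PP (left, males and females) and for female against male (right, PP and LL mice). Filled points passed the test. All intervals on the left belong to uncalled genes, and the filled points on the right are Mat1a, Bhmt and Pemt in PP mice and Pemt in LL mice.

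Bhmt had the largest estimate of the 9 in female LL against female PP and in female PP against male PP mice, but not in male LL against male PP (Mat1a) or female LL against male LL mice (Pemt). In male PP mice it had 15973, 14941, 17808 and 14511 normalized counts. In male LL mice the counts were 18857, 19080, 18091 and 10826. The fourth male LL mouse stood below every male PP mouse while the other 3 stood above them.

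Female PP mice had 8693, 8808, 6878, 12888 and 6424 normalized counts of Bhmt. Female LL mice had 18673, 11116, 19739, 13472 and 8992. Each female PP mouse was below each male PP mouse, whereas female LL mice ran from the female PP range up to that of the males.

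In PP mice the level of Bhmt in females was 0.553 times that in males, or -0.86 ± 0.24 on the log2 scale (SE, DESeq2 adjusted P = 0.00685). With the average transcript length of each library as an offset the value was -0.75 with an adjusted P of 0.0789, and the call was lost. In LL mice the log2 difference between the sexes was -0.22 ± 0.24 (adjusted P = 0.670). The LL against PP log2 fold change was 0.72 ± 0.22 in females (95% interval 0.29 to 1.16, unadjusted p = 0.00117, adjusted P = 0.0755) and 0.08 ± 0.25 in males (95% interval -0.41 to 0.57, adjusted P = 0.976). The test of the difference between these 2 values gave 0.64 ± 0.33 with an unadjusted p of 0.0546 and an adjusted P of 0.509. Bhmt in females was called without female PP 4 (log2 fold change 0.90, adjusted P = 0.00329), and also without female LL 2, female LL 5 or male LL 4. In this order, these fits called 270, 128, 57 and 90 of all 10938 genes, against 72 with all libraries. Fragment length as a term brought it to 0.57 with an adjusted P of 0.629.

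Bhmt2, the neighbour of Bhmt, did not follow it between the sexes. It had 582, 557, 612 and 686 normalized counts in male PP and 640, 546, 568, 658 and 610 in female PP mice. The 2 ranges overlapped almost fully, and the log2 fold change for female against male was -0.01 ± 0.09 (SE, 95% interval -0.18 to 0.16). Male LL mice had 684, 665, 653 and 664 and female LL mice had 707, 638, 701, 626 and 650 normalized counts. Between LL and PP mice the log2 fold change was 0.13 ± 0.09 in males and 0.14 ± 0.08 in females, and averaged over the sexes it was 0.13 ± 0.06 (unadjusted p = 0.0306, adjusted P = 0.234). With this narrow interval, 0.01 to 0.25, a change of Bhmt2 by the 30% that the call required lay outside the range of the estimate.

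Mtr was measured from few reads. Male PP mice had 19.2, 28.3, 38.5 and 27.0 normalized counts and male LL mice 40.2, 25.2, 25.9 and 24.8. Female PP mice had 22.4, 26.4, 21.8, 19.0 and 38.2 and female LL mice 23.7, 29.6, 22.0, 17.3 and 18.6. All 4 groups overlapped. Group means were 28.3 ± 7.94 in male PP, 29.0 ± 7.45 in male LL, 25.5 ± 7.53 in females with PP and 22.2 ± 4.87 in females with LL (SD). The 95% interval of the log2 fold change by LL genotype, -0.58 to 0.58 in males and -0.72 to 0.32 in females, leaves room for a change beyond the 30% limit in either direction in males and for a fall beyond it in females.

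Mat1a, which makes SAM, had 8664, 10494, 11023 and 12474 normalized counts in male PP mice. Male LL mice had 16133, 14279, 12422 and 15022. Female PP mice had 13046, 16404, 13700, 18767 and 22122, and female LL mice 13425, 15775, 23737, 16714 and 15211. Male PP mice were the low group: each was below each female PP mouse, and the highest of them passed only the lowest male LL mouse.

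In PP mice Mat1a was 1.58-fold higher in females, or 0.66 ± 0.18 on the log2 scale (SE, DESeq2 adjusted P = 0.00544). The difference between female LL and male LL mice was 0.23 ± 0.18 (adjusted P = 0.498). Between LL and PP mice the log2 fold change was 0.44 ± 0.19 in males (unadjusted p = 0.0186, adjusted P = 0.313) and 0.01 ± 0.17 in females (95% interval -0.31 to 0.34), with an interaction of -0.43 ± 0.25 (adjusted P = 0.574). Mat1a reads were split between the long transcripts Mat1a-201 and Mat1a-203, the former holding 63.9% of the gene on average and between 0% and 98.4% in single libraries. On Mat1a-201 alone the female against male difference in PP mice was 0.47 ± 1.10 and was not called (adjusted P = 0.903).

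Pemt, the methyltransferase that makes phosphatidylcholine, was the member called in both genotypes. Male PP mice had 1008, 857, 880 and 881 normalized counts, and male LL mice 605, 1011, 977 and 1041. In female PP mice there were 1274, 1297, 1345, 1266 and 1203, and in female LL mice 1621, 1377, 1250, 1634 and 1443. All 10 female values lay above all 8 male values, and no value of a female mouse was below 1203.

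The log2 fold change of Pemt for female against male was 0.50 ± 0.14 in PP mice (1.41-fold, SE, DESeq2 adjusted P = 0.00606) and 0.69 ± 0.14 in LL mice (1.61-fold, adjusted P = 3.29e-05). The interaction was 0.19 ± 0.19 (adjusted P = 0.805). Between LL and PP mice the log2 fold change was 0.01 ± 0.14 in males (95% interval -0.27 to 0.29) and 0.20 ± 0.13 in females (95% interval -0.05 to 0.45).

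The files list 10 transcripts of Pemt. Pemt-202, of 1003 bases, held 63.3% of its reads on average, from 27.9% to 92.6% by library, and most of the rest fell on transcripts of 358 to 438 bases. The average effective length of the gene ranged from 68.2 to 486 bases between libraries, so its TPM moves with that division of reads. With this length as an offset the sex difference was -0.30 in PP mice (adjusted P = 0.775) and 1.49 in LL mice (adjusted P = 0.0157). On Pemt-202 alone it was 0.60 ± 0.30 in PP mice (adjusted P = 0.273) and 0.11 ± 0.30 in LL mice (adjusted P = 0.891), so the call rests on the sum over transcripts.

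Gnmt, which removes SAM by methylating glycine, varied widely in each group. Female PP mice had 2629, 5278, 3421, 4118 and 3590 normalized counts and female LL mice 1990, 2645, 3952, 4034 and 5596. Male PP mice had 2318, 2983, 2831 and 3002 and male LL mice 2184, 3334, 3433 and 4069. All 4 ranges overlapped. For LL against PP the log2 fold change was 0.23 ± 0.26 in males and -0.06 ± 0.24 in females, and for female against male it was 0.45 ± 0.25 in PP mice (adjusted P = 0.351) and 0.16 ± 0.25 in LL mice.

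**Figure D3:**
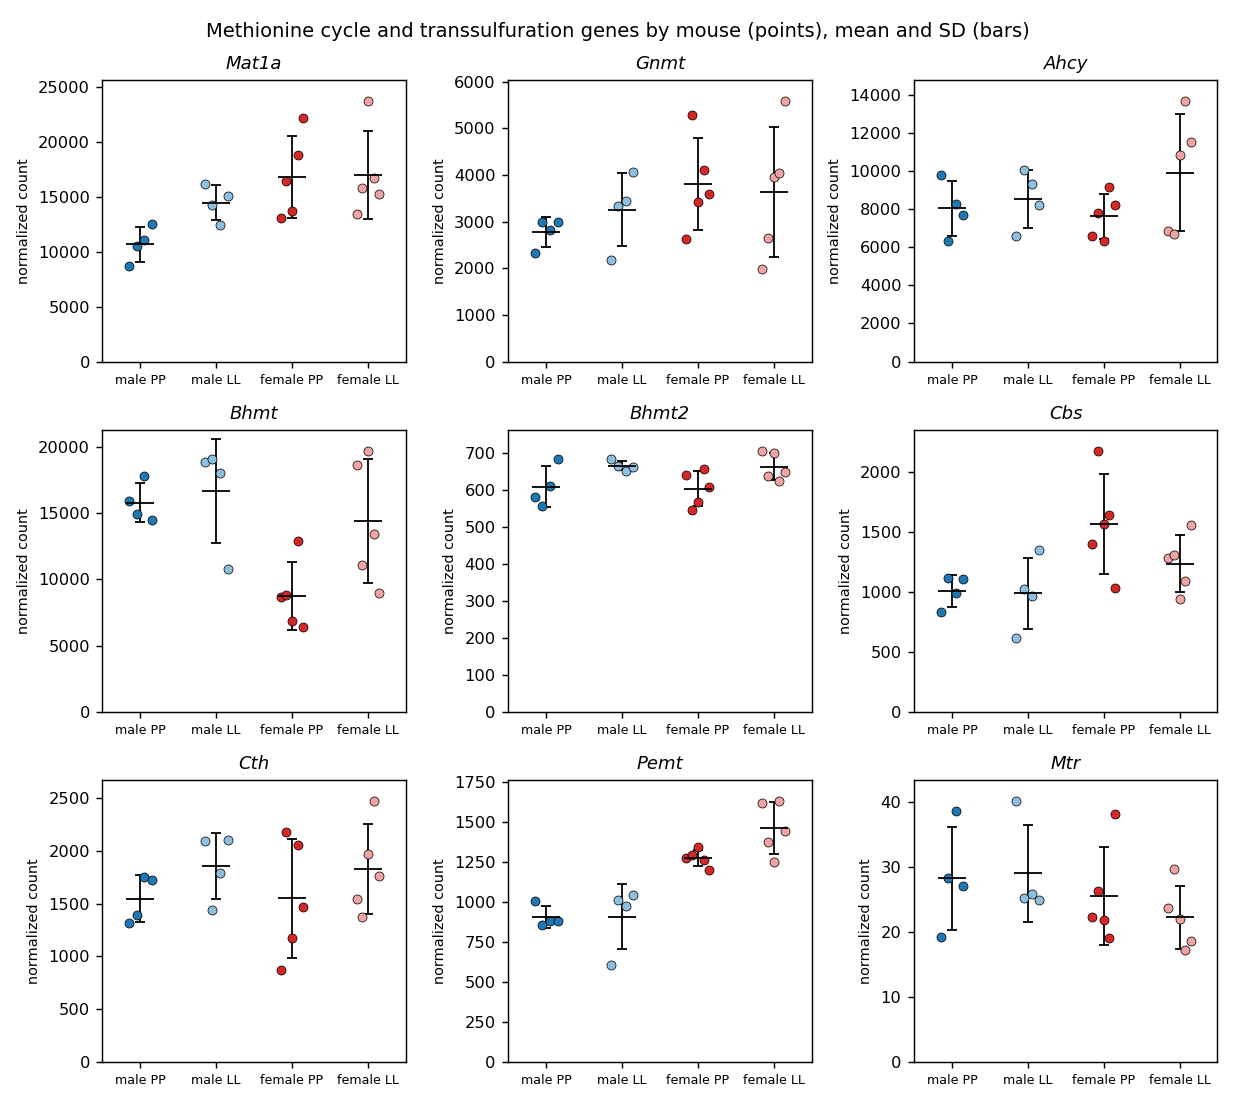
Normalized counts of the 9 genes in each of the 18 mice (points), with the mean and SD of each group (black bars) and axes that start at 0. Pemt separates females from males, Bhmt is low in female PP mice, and Mat1a is low in male PP mice.

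Ahcy, which clears S-adenosylhomocysteine, had 9768, 6345, 8286 and 7711 normalized counts in male PP and 6576, 10048, 9332 and 8201 in male LL mice. In female PP mice there were 6590, 7766, 6329, 9171 and 8206, and in female LL mice 6857, 6701, 10810, 13686 and 11491. Within female LL mice 2 values lay in the female PP range and 3 lay above it. The LL against PP log2 fold change was 0.38 ± 0.19 in females (unadjusted p = 0.0478, adjusted P = 0.332) and 0.09 ± 0.21 in males (adjusted P = 0.964). Between the sexes it was -0.08 ± 0.20 in PP and 0.21 ± 0.20 in LL mice.

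The near copy Ahcyl was assigned reads in some libraries and none in others, and whether these came from Ahcy was not tested. In male PP mice Ahcyl had 312, 1337, 1121 and 1501 normalized counts, and in male LL mice 1725, 0, 1227 and 742. In female PP mice it had 71.1, 524, 1012, 164 and 257, and in all 5 female LL mice it was at 0. As a share of both genes Ahcyl held 3.10% to 17.4% in male PP, 0% to 20.8% in male LL and 1.07% to 13.8% in female PP mice. No female LL value of Ahcyl reached the lowest female PP value.

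With Ahcyl added, the sum was 9095 ± 1013 in male PP, 9463 ± 1027 in male LL, 8018 ± 1038 in females with PP and 9909 ± 3049 in females with LL (SD). The log2 fold change of this sum by LL genotype was 0.31 ± 0.17 in females (unadjusted p = 0.0796, adjusted P = 0.399) and 0.06 ± 0.19 in males (adjusted P = 0.980). Counting the reads given to the near copy thus took the unadjusted p in females from 0.0478 to 0.0796.

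**Figure D4:**
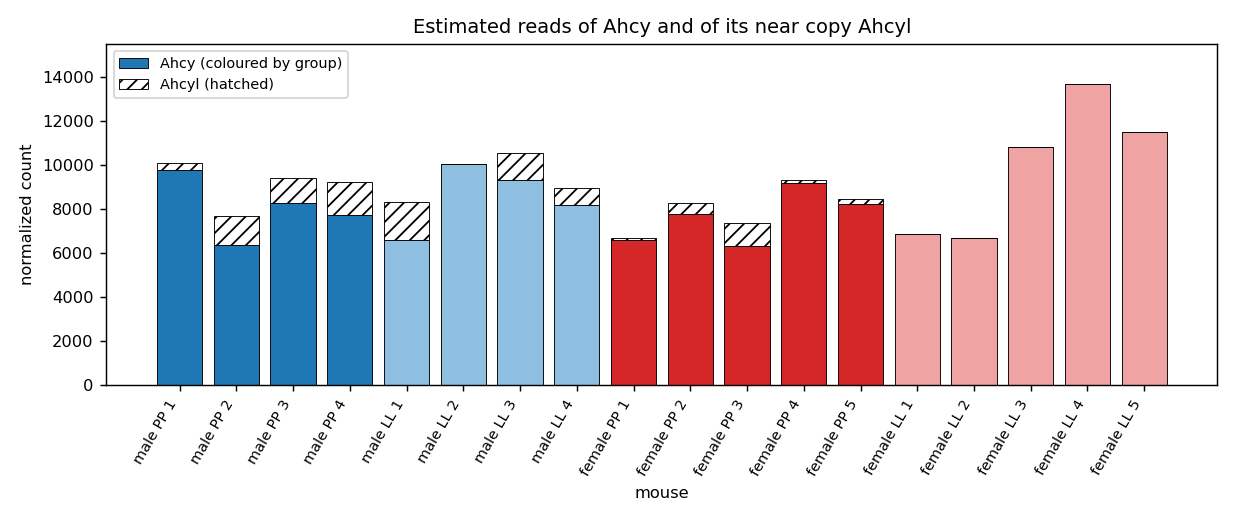
Normalized counts of Ahcy (coloured by group) with those of its near copy Ahcyl stacked on top (hatched), in each of the 18 mice. The hatched part is absent in male LL 2 and in all 5 female LL mice.

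Cbs, the entry to transsulfuration, had 829, 1112, 993 and 1108 normalized counts in male PP and 616, 1020, 965 and 1345 in male LL mice. Female PP mice had 1401, 2176, 1565, 1638 and 1028, and female LL mice 1279, 1306, 941, 1087 and 1560. All female PP mice but female PP 5 were above every male PP mouse. The log2 fold change for female against male was 0.63 ± 0.22 in PP mice (DESeq2 adjusted P = 0.0514) and 0.32 ± 0.22 in LL mice (adjusted P = 0.418). The PP value missed the threshold narrowly, and it was called with TMM scaling (adjusted P = 0.0494) and with only the compared groups in the fit (adjusted P = 0.0187), though not by edgeR (adjusted P = 0.106). It was also called in 5 of 18 fits that left out 1 library, without female PP 5 (0.75, adjusted P = 0.00956), female LL 3, female LL 5, male LL 1 or male LL 4, which gave 4 of 9 members called in those fits. Of the 11 alternatives that changed the processing, 4 called Cbs in this comparison. Over these 11 the log2 fold change ran from 0.36 to 1.27, with adjusted P up to 0.797. Between LL and PP mice the log2 fold change was -0.34 ± 0.20 in females (95% interval -0.74 to 0.06) and -0.04 ± 0.23 in males.

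Cbs reads were spread over 12 transcripts, Cbs-201 and Cbs-202 holding 36.2% and 32.2% on average. On Cbs-201 alone the counts were 288 ± 64.7 in male PP and 694 ± 321 in female PP mice (SD), and the log2 fold change for female against male was 1.27 ± 0.32 (adjusted P = 0.00235). The retained intron transcript Cbs-207 held 4.81% to 50.2% of the gene.

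Cth, which releases cysteine from cystathionine, had 1317, 1392, 1750 and 1725 normalized counts in male PP and 2092, 1437, 1793 and 2107 in male LL mice. In female PP mice there were 871, 2179, 1172, 2055 and 1470 and in female LL mice 1547, 1373, 1973, 2473 and 1758. The groups overlapped in each comparison. For LL against PP the log2 fold change was 0.26 ± 0.24 in males (95% interval -0.21 to 0.74) and 0.24 ± 0.22 in females (95% interval -0.19 to 0.66). Between the sexes it was 0.00 ± 0.23 in PP and -0.03 ± 0.23 in LL mice.

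Markers of other liver cells moved with sex in the libraries of PP mice. In female PP against male PP mice 3 of 6 endothelial markers and 4 of 6 stellate markers were called higher, and 1 of 8 hepatocyte markers (Alb) was (3.68% of all genes higher). In female LL against male LL mice 0 of 6 endothelial, 0 of 6 stellate and 0 of 8 hepatocyte markers were called. There 1 of 8 Kupffer cell markers was called higher (3.33% of all genes higher). The summed normalized counts of the 8 hepatocyte markers ran from 396565 to 504838 in male PP, 489354 to 581349 in male LL, 715722 to 821811 in female PP and 608233 to 734429 in female LL mice. Such a sum is set mostly by the most abundant markers. Taken singly, 6 of the 8 had a positive log2 fold change in female PP against male PP mice (median 0.26, range -0.37 to 0.94). Those of the endothelial markers ran from 144 to 275 in male PP and 282 to 592 in female PP mice, and those of the stellate markers from 302 to 627 and from 755 to 1000. The part of these differences in the values of Mat1a, Pemt, Cbs and Bhmt, of which Bhmt was lower in female PP mice, was not tested. By LL genotype, all 8 estimates of Kupffer cell markers were negative in either sex, with 0 of 8 called in males, 0 of 8 in females and 1 of 8 (lower) averaged over the sexes, where 8 of 8 had an unadjusted p below 0.05 (13.8% of all genes). Within a sex 7 of 8 had an unadjusted p below 0.05 in males (7.81% of all genes) and 2 of 8 in females (13% of all genes). In female LL against female PP mice all 6 endothelial estimates were also negative (median log2 fold change -0.57, 0 of 6 called, 4 of 6 at an unadjusted p below 0.05 beside 13% of all genes). In male LL against male PP mice 5 of 6 endothelial estimates were positive (median 0.38, 0 of 6 called, 0 of 6 at an unadjusted p below 0.05). Stellate estimates were positive for 6 of 6 markers in males (median 0.57) and 2 of 6 in females (median -0.24), with 0 of 6 called in each. Summed endothelial markers ran from 213 to 427 normalized counts in female LL mice and summed Kupffer cell markers from 668 to 1028, against 1056 to 1307 in female PP mice. Their part in the values of Bhmt, Gamt and Chkb in females was not tested. Of 5 cholangiocyte and 5 lymphocyte markers, 1 each passed the filter on low counts.

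Genes around the pathway were followed in 5 lists of 59 genes, of which 54 were tested. In male LL against male PP mice 0 of 54 were called (0.283% of all genes), and 3 of 54 had an unadjusted p below 0.05 (7.81% of all genes). In female LL against female PP mice 2 of 54 were called higher (0.366% of all genes) and none lower, with 13 of 54 at an unadjusted p below 0.05 (13% of all genes). Averaged over the sexes 0 of 54 were called (0.978% of all genes), with 14 of 54 at an unadjusted p below 0.05 (13.8% of all genes). The edgeR test called 3, 3 and 9 of all 10938 genes in these comparisons, neither of the 2 pathway genes among them.

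The 2 list genes called in females by LL genotype lie near the pathway because the lists were chosen around it. Over all 10938 genes tested 72 were called in this comparison. Gamt, the guanidinoacetate methyltransferase that spends SAM on making creatine, had 507, 456, 454, 827 and 403 normalized counts in female PP and 832, 684, 661, 1127 and 1077 in female LL mice. Only the fourth female PP mouse reached the female LL range. Its log2 fold change was 0.73 ± 0.20 (DESeq2 adjusted P = 0.0335), and it was 0.198 by edgeR's adjusted P. Chkb, a choline kinase of the other route to phosphatidylcholine, had a log2 fold change of 0.54 ± 0.15 (adjusted P = 0.0472), lost under edgeR (adjusted P = 0.179). With fragment length, which differed between these groups, as a term Gamt was at 0.61 (adjusted P = 0.499) and Chkb at 0.42 (adjusted P = 0.607), neither of them called. Of the 11 alternatives that changed the processing, these 2 among them, 4 lost the call of Gamt (adjusted P up to 0.499). The call of Chkb was lost in 7 of the 11 (log2 fold change down to 0.32, adjusted P up to 0.821). Leaving out 1 library lost the call of Gamt in 7 of 18 fits, without female PP 1, 2, 3 or 5 or female LL 1, 4 or 5 (log2 fold change 0.62 to 0.94 over all 18, adjusted P up to 0.193). It lost that of Chkb in 13 of 18 (0.44 to 0.65, adjusted P up to 0.234), which stayed called without female PP 4, female LL 2, male LL 1 or male LL 4, and without female LL 3 had no adjusted P.

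Between the sexes 5 of 54 were called in PP mice, 2 higher and 3 lower in females (6.45% of all genes, 3.68% higher and 2.77% lower), and 7 of 54 in LL mice, 4 higher and 3 lower (6.12% of all genes, 3.33% higher and 2.79% lower). The genotype by sex interaction called 0 of 54 (0.119% of all genes). A call in 1 genotype only therefore did not show that a sex difference depended on genotype. Chpt1, the cholinephosphotransferase at the end of the choline route to phosphatidylcholine, was lower in females in both genotypes. Male PP mice had 765, 457, 856 and 723 normalized counts of Chpt1 and female PP mice 418, 271, 379, 322 and 423, with a log2 fold change of -0.95 ± 0.18 (adjusted P = 1.53e-05). In LL mice it was -0.75 ± 0.18 (adjusted P = 0.00189). Pemt, at the end of the methylation route to the same lipid, was higher in females in both. Cept1, which also ends the choline route, was higher in female PP mice (log2 fold change 0.46 ± 0.15, adjusted P = 0.0356), not by edgeR (adjusted P = 0.0747) and not without female PP 1, 2 or 4 or male PP 2 or 4 (adjusted P up to 0.168). Of the 11 alternatives that changed the processing, edgeR among them, 5 lost the call of Cept1 (adjusted P up to 0.274).

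Ahcyl2, a relative of Ahcy that is not known as a hydrolase, was lower in females in both genotypes, with log2 fold changes of -0.80 ± 0.22 in PP (adjusted P = 0.00793) and -1.15 ± 0.24 in LL mice (adjusted P = 0.000107). The former call was lost without male PP 3 (-0.68, adjusted P = 0.0835) and the latter with the transcript length offset (-0.93, adjusted P = 0.156). Gamt was higher in female LL than male LL mice by 0.80 ± 0.21 (adjusted P = 0.00496), a call lost with fragment length as a term (0.70, adjusted P = 0.0504).

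Downstream of Cth, Csad, which makes the precursor of taurine, was lower in female LL than male LL mice (log2 fold change -1.44 ± 0.29, adjusted P = 4.94e-05). Male LL mice had 306, 452, 685 and 459 normalized counts of Csad and female LL mice 192, 165, 183, 121 and 217. Cdo1, the cysteine dioxygenase that precedes it, was higher in the same comparison (0.43 ± 0.13, adjusted P = 0.0151), as was the sulfurtransferase Tst (0.83 ± 0.24, adjusted P = 0.0156). Sqor, which oxidises hydrogen sulfide, was higher in female PP than male PP mice (0.51 ± 0.15, adjusted P = 0.0167), and Apip, of the methionine salvage pathway, was lower (-0.68 ± 0.22, adjusted P = 0.0363). Of these, Cdo1, Tst, Sqor and Apip were not called by edgeR, with adjusted P from 0.0529 to 0.0724. Of the 11 alternatives that changed the processing, edgeR among them, 4 lost Cdo1 (adjusted P up to 0.166) and 4 lost Tst (up to 0.101). Sqor was lost in 2 of these 11 (adjusted P up to 0.686) and Apip in 5 (up to 0.535). Leaving out 1 library lost Cdo1 in 5 of 18 fits (without female LL 1 or 4 or male LL 2, 3 or 4), Tst in 3 (without female LL 5 or male LL 1 or 4), Sqor in 2 (without female PP 2 or male PP 2) and Apip in 6 (without female PP 2, 3 or 5 or male PP 1, 3 or 4), with adjusted P up to 0.264. Chpt1 and Csad were called in all 18 such fits and under all 11 other alternatives.

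**Figure D5:**
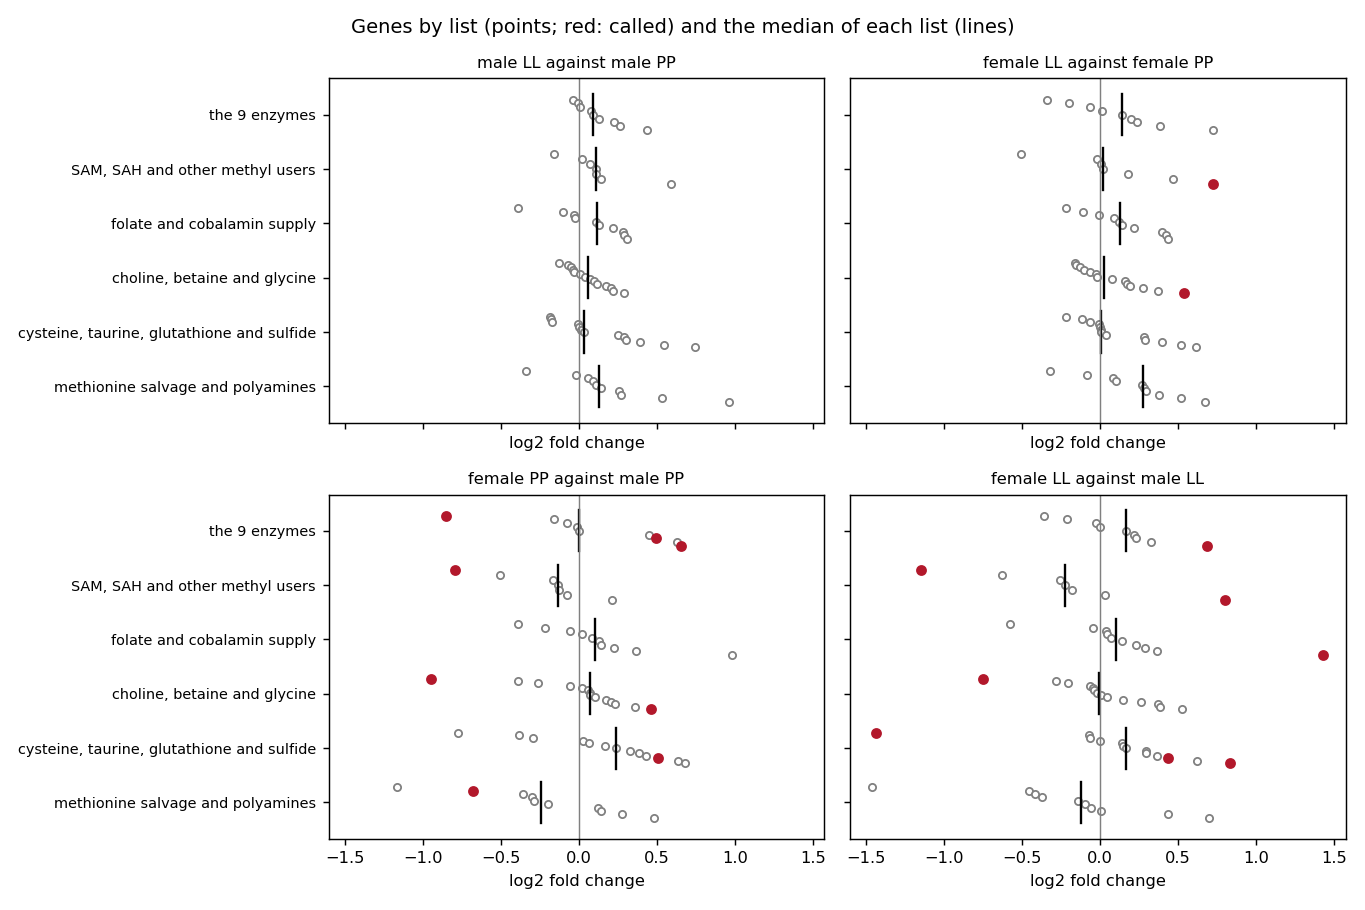
DESeq2 log2 fold change of the 9 enzymes and of the 54 tested genes of 5 neighbouring lists (points, red where called), with the median of each list as a line, in 4 comparisons. Red points appear in 1 of the 2 genotype comparisons and in both comparisons between the sexes, on either side of 0.

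The genes most like each called member over the 18 libraries were found by the root mean square difference of centred log2 normalized counts among 5644 genes. For Pemt they were Fgfr4 (0.171), Gnptg (0.172) and Pcyt2 (0.174), where the median gene stood at 0.452. For Mat1a they were Suox (0.218), Nadk (0.219) and Nudt21 (0.227), with a median of 0.448. For Bhmt they were Tmem243 (0.296), Gm28661 (0.307) and Slc25a45 (0.308), with a median of 0.574.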

How the data were processed

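The authors extracted RNA from 18 livers, kept samples that passed an RNA integrity limit, checked read quality with FastQC and assigned reads with Salmon 1.4.0 to GENCODE mouse transcripts (release M26, GRCm39). The tool names and version follow the submitters' processing notes. Each deposited table gave 139225 transcripts with estimated counts, not scaled between libraries, and TPM computed by Salmon for the authors. The deposited transcript length and effective length columns, in bases, were used for fragment length and for the length offset.

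Transcripts were joined to genes with the GENCODE M39 annotation of GRCm39, which held 137570 of them and at least 99.8% of the counts of each library. Estimated counts were summed per gene and rounded. DESeq2 1.42.0 in R 4.3.3 was the tool of the study, with the model not given in the sources used here, and was fitted to all 18 libraries with the 4 groups as levels (median-of-ratios size factors, Wald test, Benjamini-Hochberg adjustment over all genes tested). Normalized counts are counts divided by those size factors. edgeR 4.0.16, TMM scaling, no filter, length offset, fragment length, age, replicate number and each library left out were alternatives. The fit was tested on simulated data. Library measures were compared by two-sided exact permutation tests.

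Groups came from the sex and genotype in the labels, 1 library per mouse. Libraries of a group differed beyond sampling noise (chi-square per degree of freedom 11.7 to 93.8), so none was counted as a repeat. The labels name separate mice and no litter or batch. Replicate numbers only name mice. All 9 members, genes of the 5 lists called in any comparison, Ahcyl and the 3 genes nearest to a called member were named. Of the list genes called, 1 is counted but its values are not reported here. Dmgdh, Bhmt1b and Bhmt-ps1 were named for position or sequence, and Alb for its marker list. Members and lists were chosen with earlier results of these data known, and no pattern here is independent support for those. Promoter sequences are from RefSeq (GRCm38.p6), coding sequences from the GENCODE M39 transcripts. An adjusted P that DESeq2 left empty stayed empty, as for Mtr in males.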

Additional observations from a re-analysis of the deposited data

Results flagged for a closer look

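Of 36 groups of values of the 9 genes, 4 held a mouse that stood apart from the rest of its group by a gap of a size that chance gives in about 1 of 20 groups. Male LL 4 had 10825.6 normalized counts of Bhmt, against 18090.6 in the nearest male LL mouse. Male LL 1 had 605.248 normalized counts of Pemt (nearest 977.074) and 40.1771 of Mtr (nearest 25.8768). Male PP 1 had 1008.02 normalized counts of Pemt (nearest 881.314). Without these mice in turn Pemt stayed called between the sexes in both genotypes.

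The near copy Ahcyl was called in the genotype by sex interaction (DESeq2 adjusted P = 0.000101), at 0 counts in all 5 female LL mice and in male LL 2. Fragment length was 203 bases in male LL 2 and 247 to 376.5 bases in the female LL mice. In the libraries with Ahcyl counts it was 368.9 bases or more. The part of fragment length in the Ahcyl values was not tested. The edgeR quasi-likelihood test called 0 genes of 10938 in the interaction, and 620 genes, 5.67% of those tested, had an unadjusted p below 0.05 by DESeq2. Of the 31-base words of Ahcyl 93.2% also occur in Ahcy, and the part that the division of reads between the 2 genes had in this result was not tested.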

How the results depend on the processing

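Of the 4 calls between the sexes among the 9 genes, all held in the 18 fits that each left out 1 library and under every other alternative but the transcript length offset (Bhmt and Pemt in PP mice lost) and the most abundant transcript alone (Mat1a and Pemt lost). Members called in female PP against male PP mice fell from 3 to 1 (Mat1a) with the transcript length offset, and in female LL against male LL mice from 1 to 0 on the most abundant transcript alone, an alternative chosen after seeing the data. Leaving out 1 library gave 0 to 1 members called by LL genotype in females (Bhmt, without female PP 4, female LL 2, female LL 5 or male LL 4) and 0 to 1 averaged over the sexes (Bhmt, without female PP 4). Without female PP 4 the averaged comparison called 172 of all 10938 genes, against 107 with all libraries. The higher mitochondrial share of female LL mice, 2.29 percentage points, ran from 2.00 to 2.78 (exact permutation p up to 0.0556) without 1 library, and was 1.83 as a share of TPM (exact permutation p = 0.302). The cause of these changes was not tested.

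Over all genes edgeR called 3 in male LL against PP mice (31 by DESeq2), 3 in females (72), 9 averaged over the sexes (107) and 0 in the interaction (13). The length offset gave 53 in males and 28 in females, fragment length as a term 14 in females, 44 averaged and 432 between the sexes in LL mice (669), age 44 in females and 56 averaged, and no independent filtering 8 in the interaction. Leaving out 1 library gave 20 to 60 in males, 28 to 270 in females, 69 to 179 averaged and 3 to 27 in the interaction.

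Log2 differences that changed sign were all of uncalled values except for Pemt in female PP against male PP mice, -0.30 with the length offset. That offset also turned, for LL against PP in males, Ahcy (-0.13) and Pemt (-1.28), in females Ahcy (-0.23), and averaged Gnmt (-0.036), Ahcy (-0.18) and Pemt (-0.38). Between the sexes it turned Ahcy (0.46), Bhmt2 (0.080) and Cth (-0.035) in PP and Gnmt (-0.042) and Bhmt2 (0.036) in LL mice, and in the interaction Ahcy (-0.10), Bhmt2 (-0.043) and Cbs (0.53). Fragment length turned, in males, Ahcy (-0.048), Bhmt (-0.057), Cbs (0.0084), Pemt (-0.012) and Mtr (0.0065), and between the sexes Cth (-0.00025) in PP and Bhmt2 (0.013) in LL mice. Age turned Mat1a in females (-0.12), Gnmt averaged (-0.058), and between the sexes Bhmt2 in PP (0.0092) and LL mice (0.012) and Cth in LL mice (0.030). The most abundant transcript alone turned Cbs (0.015) and Mtr (0.052) in males, Pemt in females (-0.079), Cth between LL mice (0.033), and in the interaction Mat1a (0.38), Cth (0.0032) and Pemt (-0.49). In males Pemt was -0.0012 and Mtr 0.0046 under edgeR, and Mtr was 0.00087 without the filter and 0.011 with only the compared groups.

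Replicate numbers did not pair the mice: same-numbered mice correlated from -0.17 to 0.05 in males and -0.10 to 0.16 in females by deviation from the group mean, and best with their own number in 0 of 4 and 2 of 5 cases. The replicate block gave 0 calls by LL genotype and called Cbs between the sexes in PP mice (0.63, adjusted P = 0.0491). It turned Pemt (-0.0018) and Mtr (0.0015) in males and Cth (-0.0082) between PP mice.

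Leaving out 1 library spanned 0, for LL against PP in males, for Ahcy (-0.0078 to 0.20), Cbs (-0.22 to 0.13), Pemt (-0.067 to 0.16) and Mtr (-0.19 to 0.19), and in females for Mat1a (-0.14 to 0.13), Gnmt (-0.27 to 0.090) and Mtr (-0.33 to 0.0018). It did so averaged for Gnmt (-0.023 to 0.16), and in the interaction for Bhmt2 (-0.052 to 0.053), Cth (-0.18 to 0.13) and Mtr (-0.39 to 0.0083). Between the sexes it did so in PP mice for Ahcy (-0.17 to 0.030), Bhmt2 (-0.057 to 0.050), Cth (-0.15 to 0.15) and Mtr (-0.37 to 0.027), and in LL mice for Gnmt (-0.045 to 0.32), Bhmt2 (-0.027 to 0.018) and Cth (-0.16 to 0.061). With 17.3 to 40.2 normalized counts, Mtr was the member that depth limited.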
